A study of Arabidopsis thaliana with 12 samples.

Results

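The transcripts that varied between replicate sets of seedlings were examined by comparing the 4 libraries of replicate 3 (set 3) with the 4 libraries of replicate 1 (set 1), out of 12 libraries in the series. Libraries were taken by their replicate number and paired within genotype and treatment. Every set held 1 library of each group. The groups were the double mutant ate1-2 ate2-1 (a1a2) treated with 1 µM flg22, a1a2 given water (mock), Col-0 treated with 1 µM flg22, and mock-treated Col-0. Col-0 is the wild-type accession, and a1a2 lacks the arginyl transferases ATE1 and ATE2 of the Arg/N-degron pathway of protein degradation. The peptide flg22 is a fragment of bacterial flagellin that is perceived by the receptor FLS2. All libraries came from poly(A) RNA of whole Arabidopsis seedlings of 10 days that had been kept in continuous light and were collected 1 h after treatment. Each library pooled the seedlings of its wells. The labels number the replicates, and the study's methods call them biological replicates. Library codes run from 320 to 323 in set 3 and from 271 to 290 in sets 2 and 1. Whether the libraries of 1 number were sown, harvested, extracted or sequenced together, and at which hour each was harvested, is not given in the sources used here. The p-values below therefore measure only the spread between these libraries, and whatever else differed between the sets cannot be told apart from the set.

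The genes described in most depth were those of the circadian clock. In Arabidopsis, the MYB-like factors CCA1 and LHY accumulate around dawn and repress genes expressed later in the day, many of which carry an evening element in the promoter. The PSEUDO-RESPONSE REGULATORS (PRRs) repress CCA1 and LHY in turn. ELF3, ELF4 and LUX form the evening complex, which represses other clock genes. RVE8 with its LNK partners activates the afternoon and evening genes. The oscillation persists in continuous light, and it controls the timing of photosynthesis, starch use, growth and part of the defence response.

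The 4 libraries of set 3 held 21468291 to 22358969 counts, those of set 2 held 21456533 to 22433536, and those of set 1 held 20285662 to 22418316. The share of the top 10 genes was 7.30% to 9.20% of all counts in set 3, 7.98% to 9.72% in set 2 and 5.48% to 7.74% in set 1. ATE1 checked the genotype labels, with 2.47, 2.19, 20.7 and 22.2 CPM in set 3, against 2.77, 2.72, 28.4 and 22.9 CPM in set 1 in the order a1a2 flg22, a1a2 mock, Col-0 flg22 and Col-0 mock, which is kept for every gene below. CPM are counts scaled to the normalised library size, and they are not corrected for transcript length. The 12 root markers tested summed to 4289 to 5095 CPM in set 3, 3853 to 4699 CPM in set 2 and 3164 to 4510 CPM in set 1. The log2 fold changes of the 12 ran from 0.199 to 0.753 (median 0.443), so all were higher in set 3. The root hair gene COBL9 was the 1 that was called, but not in the mock (0.859) or a1a2 (0.636) libraries alone. Set 3 against set 2 had 4 of the 12 called higher, and set 2 against set 1 had none called. The 7 leaf markers summed to 41190 to 51840 CPM in set 3, 46080 to 51240 CPM in set 2 and 26700 to 37480 CPM in set 1. CA1 and RCA were called higher and the other 5 were not called. The log2 fold changes of the 7 ran from -0.649 to 0.945 (median 0.217). The 2 flower markers tested of 5 listed, SEP3 and PI, were both called lower and summed to 2.09 to 3.80 CPM in set 3 and 5.49 to 11.97 CPM in set 1. Of 11 seed storage and seed maturation genes 2 passed the filter, and they summed to 0.389 to 6.12 CPM in set 3 and 0.283 to 2.82 CPM in set 1. The albumin gene SESA4 was called higher (1.45 ± 0.44, log2, SE), a call lost without the Col-0 mock or Col-0 flg22 library of either set or the a1a2 mock library of set 1 (adjusted p 0.0518 to 0.0997). SESA4 was also not called with DESeq2 (1.56, adjusted p 0.0701), or in the mock (1.62), flg22 (1.26), Col-0 (1.98) or a1a2 (1.1) libraries alone. The part of these markers in the results below was not tested.

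To find the transcripts that differed between sets, set 3 was tested against set 1 across 20439 genes with edgeR's quasi-likelihood test, with the 4 groups as a block and all 12 libraries in the fit. A gene was called at an adjusted p (Benjamini-Hochberg, over all tested genes) under 0.05 and a change over 1.5-fold. Of the genes tested, 1222 (5.98%) were called higher and 1458 (7.13%) lower in set 3, in all 2680 or 13.1%. Changes over 4-fold were fewer and mostly falls, with 39 genes higher and 103 lower. The median log2 fold change of all tested genes was 0.0012 and the median size of a change was 0.21 on the log2 scale. CPM did not overlap between the 4 libraries of set 3 and the 4 of set 1 in 2974 genes (14.6%), although each set mixes both genotypes and both treatments. Of the total variation within groups, 61.8% lay between the sets, which hold 2 of the 8 degrees of freedom. The number of calls was 984 when the group block was left out and 843 when the test was made against the 1.5-fold threshold itself, and it was 1588 in the Col-0 libraries alone.

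The within-group pairs gave like pictures. The median size of the difference between the library of set 3 and that of set 1 was 0.26 on the log2 scale for a1a2 flg22, 0.23 for a1a2 mock, 0.32 for Col-0 flg22 and 0.23 for Col-0 mock. Of the 2680 called genes, 2654, 2616, 2642 and 2573 differed in the called direction in those pairs, a count that the call itself favours. Above a mean level of 5 CPM, the largest rises were those of anthocyanin genes (LDOX, UGT79B1, DFR, TT19) and of morning clock genes (LHY, CCA1, RVE8, LNK3). The largest falls included the evening-phased genes COR27 and PRR3, 2 genes for DnaJ-domain proteins, genes for amino acid catabolism (BCAT2, THA1) and plant defensins.

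Clock genes were called between the sets at a higher rate than tested genes as a whole. The lists were chosen with earlier results of these data known, so their shares are a description and not a test. Of 42 members of the 4 clock lists tested, 14 were called higher and 17 lower in set 3 (73.8%, against 13.1% of all tested genes), and 27 (64.3%, against 14.6%) did not overlap between the sets. The 2 directions followed the phase assigned to the lists. Among 14 morning genes 8 were called higher and 2 lower (median log2 fold change 0.98), and among 12 evening genes none was called higher and 9 were called lower (median -1.32). Among outputs, 6 of 9 morning genes were called higher (median 0.80) and 6 of 7 evening genes lower (median -2.14). The count of called clock genes ran from 29 to 34 when any 1 library of set 3 or set 1 was left out.

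**Figure D1:**
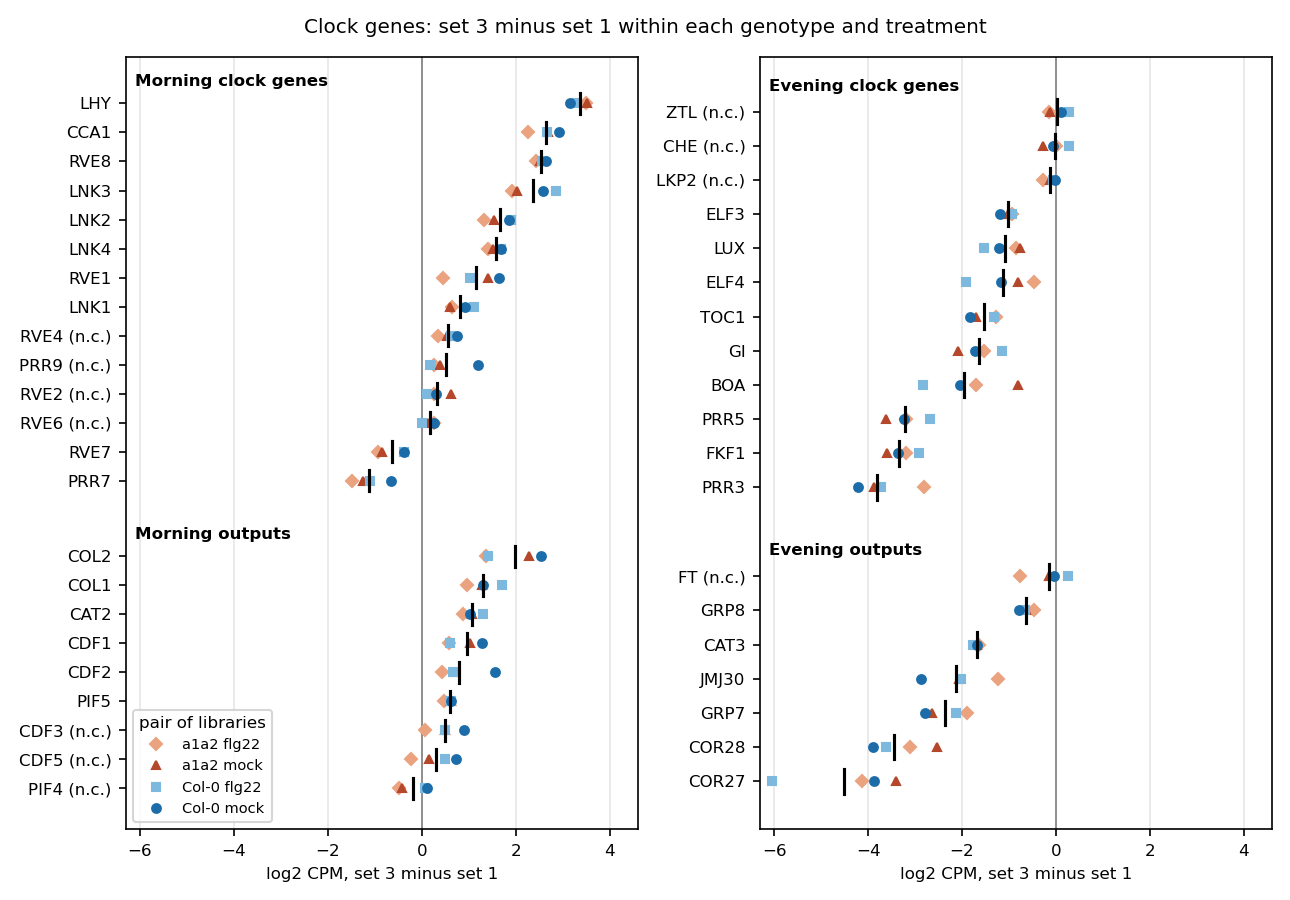
Difference in log2 CPM between set 3 and set 1 for each of the 42 clock genes (x axis; symbols are the 4 pairs of libraries and the black bar is the fitted log2 fold change; n.c., not called). The morning genes LHY to LNK1 lie right of 0 in all 4 pairs, PRR7 and RVE7 lie left of it, and the evening clock genes except ZTL, CHE and LKP2 have fitted changes of -1.02 or below.

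LHY and CCA1, which encode the paired dawn repressors, were higher in set 3 by the widest margin of the morning genes. LHY (AT1G01060), on chromosome 1, was at 231, 266, 165 and 155 CPM in set 3, against 20.3, 23.1, 16.7 and 17.3 CPM in set 1 (log2 fold change 3.38 ± 0.09, SE; adjusted p 5.25e-10). CCA1 (AT2G46830), on chromosome 2, was at 108, 145, 102 and 127 CPM in set 3, against 22.5, 22.3, 15.9 and 16.7 CPM in set 1 (log2 fold change 2.64 ± 0.11, SE; adjusted p 3.61e-08). For both genes the lowest library of set 3 was well above the highest of set 1, in either genotype and with or without flg22. RVE8, an activator of evening genes that binds the same element as CCA1, was at 44.5, 62.2, 37.9 and 48.4 CPM in set 3, against 8.21, 10.9, 6.32 and 7.68 CPM in set 1 (log2 fold change 2.55 ± 0.09, SE; adjusted p 1.78e-08).

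The LNK genes, whose products are coactivators that partner RVE8, all rose. LNK2 was at 331, 357, 369.7 and 363 CPM in set 3, against 132, 122.7, 98.7 and 99.5 CPM in set 1 (log2 fold change 1.66 ± 0.10, SE; adjusted p 3.08e-07), LNK3 changed by 2.37 ± 0.17 (log2, SE), LNK4 by 1.59 ± 0.10 and LNK1 by 0.82 ± 0.08, none of them with overlap between the sets. RVE1, which links the clock to auxin and chlorophyll synthesis, was at 18.16, 43.2, 26.9 and 45.9 CPM in set 3, against 13.4, 16.1, 13.3 and 14.6 CPM in set 1 (log2 fold change 1.15 ± 0.18, SE; adjusted p 0.000832), and its rise was smaller in the flg22-treated libraries alone (0.74) than in all libraries. The other REVEILLE genes moved less. RVE4 was at 54.0, 55.7, 55.0 and 56.0 CPM in set 3, against 42.4, 38.6, 35.6 and 33.2 CPM in set 1, without overlap, but its change of 0.56 ± 0.09 stayed under 1.5-fold. It was called without the a1a2 flg22 library of set 3 (0.59) or set 1 (0.63). RVE2 (0.33 ± 0.10) and RVE6 (0.16 ± 0.12) were also not called.

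The PRR genes, which encode repressors expressed in waves from morning to evening, were called lower in set 3 except PRR9. PRR9, the earliest of them, was at 7.55, 14.3, 10.8 and 16.9 CPM in set 3, against 6.25, 10.9, 9.56 and 7.36 CPM in set 1, and its change of 0.52 ± 0.16 (adjusted p 0.0256) stayed under 1.5-fold. It was called without the a1a2 flg22 library of set 3 (0.61) or the Col-0 flg22 library of set 1 (0.625), and was at 0.316 (adjusted p 0.0833) without the Col-0 mock library of set 1. PRR7 was at 41.7, 45.6, 56.7 and 67.2 CPM in set 3, against 117, 109, 121 and 107 CPM in set 1 (log2 fold change -1.13 ± 0.11, SE; adjusted p 1.53e-05), so this member of the morning list was lower in set 3, as was RVE7 (-0.64 ± 0.12). The call of RVE7 was lost without the a1a2 flg22 library of set 1 (-0.54) or the a1a2 mock library of set 3 (-0.57). PRR5 (AT5G24470), on chromosome 5, was at 3.75, 3.37, 5.93 and 5.01 CPM in set 3, against 34.9, 42.2, 38.8 and 48.1 CPM in set 1 (log2 fold change -3.22 ± 0.20, SE; adjusted p 1.84e-06), and PRR3 was at 1.18, 0.918, 1.07 and 1.15 CPM in set 3, against 8.87, 14.8, 15.2 and 22.8 CPM in set 1 (log2 fold change -3.80 ± 0.17, SE; adjusted p 6.5e-08). The libraries of the sets stood clear of each other for PRR7, PRR5 and PRR3.

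TOC1, the last PRR of the day and a repressor of CCA1 and LHY, was at 57.6, 17.0, 62.7 and 21.9 CPM in set 3, against 141, 56.0, 157 and 77.5 CPM in set 1 (log2 fold change -1.53 ± 0.09, SE; adjusted p 3.65e-07). The CPM ranges of the sets overlapped for TOC1, with both flg22-treated libraries of set 3 near the mock-treated libraries of set 1, while each pair of libraries differed in the same direction. Within each set TOC1 was higher after flg22 than in mock, by a mean of 1.63 (set 3), 1.45 (set 2) and 1.17 (set 1) on the log2 scale.

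Components of the evening complex and of the F-box and GIGANTEA module were lower in set 3, with exceptions. GI (AT1G22770), a large plant-specific protein that stabilises ZTL, was at 28.7, 25.3, 39.3 and 32.2 CPM in set 3, against 83.2, 108, 87.4 and 106 CPM in set 1 (log2 fold change -1.63 ± 0.13, SE; adjusted p 4.4e-06). FKF1, a blue-light receptor F-box gene of the flowering pathway, was at 1.23, 1.22, 2.62 and 1.91 CPM in set 3, against 11.9, 15.9, 20.4 and 20.4 CPM in set 1 (log2 fold change -3.35 ± 0.20, SE; adjusted p 6.01e-07). ELF3 changed by -1.02 ± 0.08 (log2, SE), ELF4 by -1.12 ± 0.21, LUX by -1.08 ± 0.12 and its relative BOA by -1.95 ± 0.25. ELF4 was -1.12 over all libraries and -0.64, not called, in the a1a2 libraries alone. ZTL, the F-box gene whose protein degrades TOC1 and PRR5, was at 27.0, 32.6, 30.1 and 32.5 CPM in set 3, against 30.1, 35.4, 24.8 and 30.2 CPM in set 1 (log2 fold change 0.02 ± 0.09, SE; adjusted p 0.893), and its relative LKP2 (-0.12 ± 0.09) and the TCP factor gene CHE (-0.02 ± 0.09) were likewise not called. BOA and LUX overlap genes on the opposite strand by 1896 and 1507 bases in the annotation, and whether the counting used strand is not stated, so reads from such neighbours cannot be told apart.

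**Figure D2:**
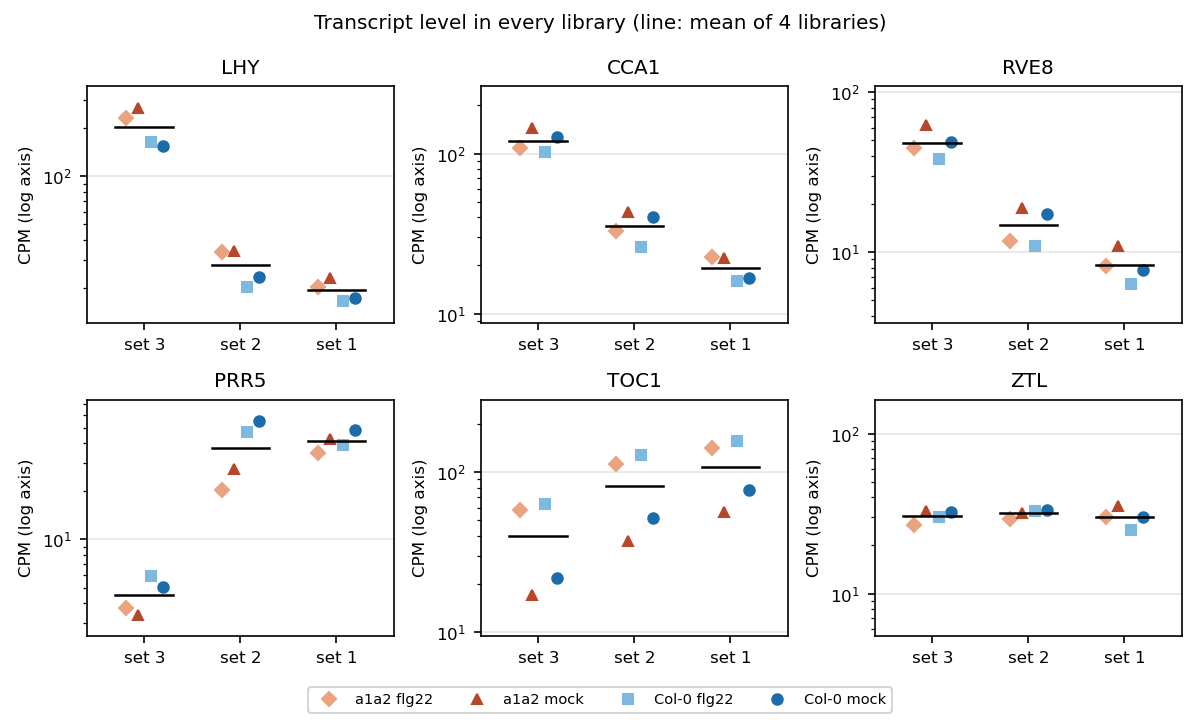
CPM of 6 clock genes in all 12 libraries (log axis), by set, with the mean of the 4 libraries of a set as a line. The means of LHY, CCA1 and RVE8 are highest in set 3 and those of PRR5 and TOC1 lowest, and ZTL lies between 24.8 and 35.4 CPM throughout.

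Clock outputs varied in the same 2 directions. Among evening outputs, COR27 (AT5G42900), a cold- and blue-light-regulated gene whose protein acts back on the clock, was at 0.543, 0.568, 0.243 and 0.892 CPM in set 3, against 11.1, 6.95, 22.0 and 14.4 CPM in set 1 (log2 fold change -4.50 ± 0.30, SE; adjusted p 1.84e-06), and its relative COR28 changed by -3.44 ± 0.25 (log2, SE). GRP7, which encodes a glycine-rich RNA-binding protein that feeds back on its own splicing, was at 110.3, 81.5, 124 and 106 CPM in set 3, against 408, 511, 546 and 732 CPM in set 1 (log2 fold change -2.36 ± 0.15, SE; adjusted p 1.27e-06). Its paralogue GRP8 changed less (-0.64 ± 0.07), and since the 2 sequences are similar, some reads may have been divided between them. CAT3, an evening-phased catalase gene, was at 409, 458, 439 and 558 CPM in set 3, against 1277, 1470.3, 1485 and 1777 CPM in set 1 (log2 fold change -1.69 ± 0.08, SE; adjusted p 8.46e-08), and the histone demethylase gene JMJ30 changed by -2.14 ± 0.22. The florigen gene FT was at 0.789, 0.700, 2.09 and 1.402 CPM in set 3, against 1.41, 0.789, 1.75 and 1.46 CPM in set 1 and was not called.

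Among morning outputs, the catalase gene CAT2 was at 1282, 1770.4, 1224 and 1355 CPM in set 3, against 698, 849.5, 499 and 668 CPM in set 1 (log2 fold change 1.06 ± 0.08, SE; adjusted p 2.15e-06), the reverse of its evening-phased relative CAT3. COL1 and COL2, relatives of the flowering regulator CONSTANS, changed by 1.302 ± 0.11 and 1.98 ± 0.18 (log2, SE), although COL1 lies wholly inside a noncoding transcript of the opposite strand. COL2 overlaps protein-coding genes of the opposite strand by 771 and 688 of its 2399 bases. CDF1 (0.96 ± 0.16) and CDF2 (0.80 ± 0.15), repressors of CONSTANS, were called higher, with overlap between the sets. In the flg22-treated libraries alone, CDF1 was at 0.61 and CDF2 at 0.54, and neither was called. PIF5, a growth-promoting bHLH gene, was at 94.1, 124, 99.0 and 125 CPM in set 3, against 67.6, 80.4, 63.9 and 81.2 CPM in set 1, and its change of 0.59 ± 0.07 lay at the 1.5-fold threshold. That call was lost without the Col-0 flg22 (0.54) or a1a2 mock (0.57) library of set 1. It was also lost without the Col-0 mock (0.55) or a1a2 mock (0.58) library of set 3. The call of PIF5 was lost as well with RLE size factors (0.571), library-size scaling (0.539), DESeq2 (0.571) or no filter on low counts (0.584). The 8 libraries of sets 3 and 1 alone gave 0.583, also not called. CDF3 (0.50 ± 0.10), CDF5 (0.30 ± 0.13) and PIF4 (-0.18 ± 0.10) were not called, but CDF3 was called without the a1a2 flg22 library of set 3 (0.594) or set 1 (0.588). CDF5 was at 0.183 without the Col-0 mock library of set 3 and 0.179 without that of set 1. PIF4 was at -0.11 without the a1a2 mock library of set 3, -0.29 without the Col-0 mock library of set 1 and -0.109 without the a1a2 flg22 library of set 1, and CDF5 and PIF4 were called in none of these fits.

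Set 2 gave a further view of the same genes. It shares its comparisons with the libraries of set 3 or set 1, so they are not independent of the result above. Set 3 against set 2 called 1412 genes (6.91%), of which 671 (3.28%) were higher and 741 (3.63%) lower. Set 2 against set 1 called 611 (2.99%), of which 258 (1.26%) were higher and 353 (1.73%) lower. With scaling to library size alone the split was 873 higher and 600 lower for set 3 against set 2, and 141 higher and 540 lower for set 2 against set 1. In set 3 against set 2, 7 morning clock genes were called higher and 2 lower, 8 evening clock genes lower, 4 morning outputs higher and 5 evening outputs lower. In set 2 against set 1, 6 morning clock genes and 2 morning outputs were called higher, and 2 evening clock genes and 4 evening outputs lower. LHY was at 33.5, 34.2, 20.3 and 23.59 CPM in set 2 and CCA1 at 32.7, 43.2, 25.9 and 39.8 CPM, all below every library of set 3. PRR5 was at 20.2, 27.4, 46.8 and 55.0 CPM in set 2, where the highest library exceeded all of set 1, and GI at 71.8, 78.5, 101 and 107 CPM.

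The summed CPM of the 14 morning clock genes were 998.3 to 1220 in set 3, 525.8 to 694.5 in set 2 and 410.8 to 490.9 in set 1. The 12 evening clock genes summed to 181.3 to 230.0 CPM in set 3, 339.7 to 492.1 in set 2 and 427.5 to 511.9 in set 1. The mean log2 CPM of the morning clock genes minus that of the evening clock genes was 1.92 to 2.64 in the 4 libraries of set 3, -0.34 to 0.83 in set 2 and -0.78 to -0.03 in set 1. On that scale the libraries of set 3 did not overlap with those of any other set, while sets 2 and 1 did overlap.

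To see what the genes share in sequence, the 250 bases upstream of each gene start were read from the RefSeq annotation and genome of TAIR10.1 for 20438 of the tested genes. The evening element AAAATATCT (reverse complement AGATATTTT), which is bound by CCA1, LHY and RVE proteins, was searched on both strands. It occurred in 112 of 1458 windows of genes called lower in set 3 (7.68%), in 19 of 1222 of genes called higher (1.55%) and in 512 of all windows (2.51%). Of the genes whose window held it, 21.9% were called lower and 3.71% higher, against 6.75% and 6.04% of the genes whose window did not. Among genes lower by over 4-fold, 15 of 103 windows (14.6%) held it. Within the clock lists, it lay in the windows of 10 of 17 genes called lower, 1 of 14 called higher (COL2) and none of 11 not called.

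The G-box CACGTG, the core site of bHLH and bZIP factors and a palindrome, occurred in 10.9% of windows of genes called higher, 8.23% of those called lower and 7.16% of all windows, and in 13 of 39 (33.3%) of those higher by over 4-fold. In the clock lists it lay in the windows of 6 of 14 genes called higher, 3 of 17 called lower and 2 of 11 not called. The related CCA1-binding site AAAAATCT was found in 5.89% of windows of genes called higher and 7.54% of those called lower, beside 6.72% of all windows. The telo-box AAACCCTA (2.21%, 2.54% and 3.45% of windows of genes called higher, called lower and all tested) and the site II element TGGGCC or TGGGCT (9.82%, 16.4% and 21.7%) were less frequent among called genes than overall. Among genes lower by over 4-fold they were not, with the telo-box in 4 of 103 windows (3.88%) and site II in 24 (23.3%). Among genes higher by over 4-fold, the telo-box lay in 0 of 39 windows and site II in 7 (17.9%). A match describes only these letters and this window, and it does not show that a site is bound.

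**Figure D3:**
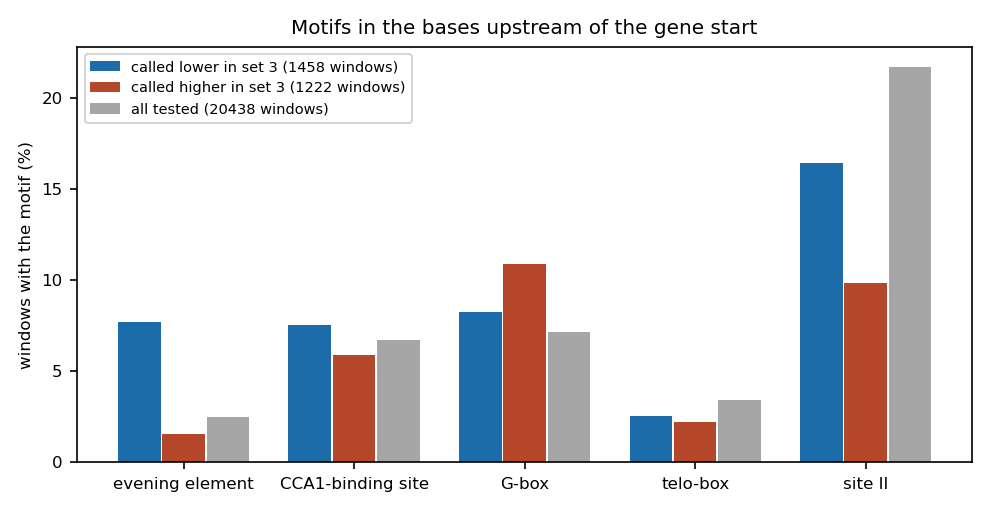
Share of 250-base upstream windows that hold each of 5 motifs on either strand (y axis, percent), for genes called lower in set 3, genes called higher and all tested genes. The evening element stands at 7.68%, 1.55% and 2.51%, and site II at 16.4%, 9.82% and 21.7%.

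The windows of 3 genes lower in set 3 and of the 2 dawn repressor genes higher in set 3 are shown because they carry the evening element, which was more frequent among genes called lower, or the G-box, which was more frequent among those higher by over 4-fold. Each is printed 5′ to 3′ on the strand of the gene and ends at the base before the gene start, with TAIR10.1 coordinates. Capitals mark the evening element or its reverse complement in the first 3 and the G-box in the last 2.
PRR5 (chr5:8358547-8358796, minus strand): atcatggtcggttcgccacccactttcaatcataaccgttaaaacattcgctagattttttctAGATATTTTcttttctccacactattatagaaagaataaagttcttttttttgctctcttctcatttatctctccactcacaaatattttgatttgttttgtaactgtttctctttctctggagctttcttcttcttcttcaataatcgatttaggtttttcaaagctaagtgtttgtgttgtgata
GRP7 (chr2:9266558-9266807, minus strand): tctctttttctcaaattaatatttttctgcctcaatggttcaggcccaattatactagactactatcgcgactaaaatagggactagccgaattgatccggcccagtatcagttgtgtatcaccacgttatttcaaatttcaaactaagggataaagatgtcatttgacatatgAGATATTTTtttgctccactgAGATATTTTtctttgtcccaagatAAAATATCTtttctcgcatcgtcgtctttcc
TOC1 (chr5:24674713-24674962, plus strand): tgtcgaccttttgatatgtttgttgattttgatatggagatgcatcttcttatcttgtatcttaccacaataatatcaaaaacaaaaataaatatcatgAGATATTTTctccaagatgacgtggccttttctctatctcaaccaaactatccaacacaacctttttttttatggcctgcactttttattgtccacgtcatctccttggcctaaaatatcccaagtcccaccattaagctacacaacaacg
LHY (chr1:37872-38121, minus strand): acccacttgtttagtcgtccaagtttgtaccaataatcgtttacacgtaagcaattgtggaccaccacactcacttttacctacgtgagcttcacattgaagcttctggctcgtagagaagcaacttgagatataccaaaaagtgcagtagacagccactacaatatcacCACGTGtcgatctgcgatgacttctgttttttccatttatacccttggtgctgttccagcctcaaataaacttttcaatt
CCA1 (chr2:19245341-19245590, plus strand): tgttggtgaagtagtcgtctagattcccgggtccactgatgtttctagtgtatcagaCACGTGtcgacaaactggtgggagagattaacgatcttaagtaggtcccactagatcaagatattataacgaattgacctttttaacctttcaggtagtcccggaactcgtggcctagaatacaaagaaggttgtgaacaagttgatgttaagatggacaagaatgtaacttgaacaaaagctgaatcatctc
The evening elements begin 187 bases upstream of the start of PRR5, 76, 55 and 31 bases upstream of GRP7 and 151 bases upstream of TOC1. The G-box begins 80 bases upstream of LHY and 193 bases upstream of CCA1. GRP7, with 3 elements, changed by -2.36 on the log2 scale, and PRR5 and TOC1, with 1 each, by -3.22 and -1.53.

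Beyond the clock, the largest rises of single genes in set 3 were those of anthocyanin genes. Of 19 flavonoid and anthocyanin genes tested, 15 were called higher and none lower (median log2 fold change 1.28), beside 5.98% higher and 7.13% lower of all tested genes. CPM did not overlap between the sets in 13 of the 19, beside 14.6% of all tested genes. The 3 largest rises were in the late steps that make anthocyanin. LDOX, the anthocyanidin synthase gene, was at 29.3, 54.9, 7.97 and 16.9 CPM in set 3, against 0.806, 2.33, 0.360 and 2.22 CPM in set 1 (log2 fold change 4.15 ± 0.32, SE; adjusted p 8.21e-06), and DFR, the dihydroflavonol reductase gene, was at 44.0, 89.2, 10.1 and 22.8 CPM in set 3, against 1.51, 4.70, 0.925 and 3.03 CPM in set 1 (log2 fold change 3.90 ± 0.29, SE; adjusted p 5.67e-06). UGT79B1, which encodes an anthocyanin xylosyltransferase, changed by 3.92 ± 0.30 (log2, SE), the acyltransferase gene 5MAT by 2.84 ± 0.32 and the anthocyanin carrier gene TT19 by 2.63 ± 0.25. In set 3, both a1a2 libraries were above both Col-0 libraries for LDOX and DFR, and the set by genotype term was not called for any gene of the list. CHS, the first enzyme of the pathway, was at 498, 762, 292 and 406 CPM in set 3, against 134, 193, 122 and 156 CPM in set 1 (log2 fold change 1.62 ± 0.13, SE; adjusted p 6.53e-06), and the MYB activator gene PAP1 changed by 1.51 ± 0.30. Against set 2, set 3 had 16 of the 19 called higher, while set 2 against set 1 had none called.

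Genes of iron deficiency and of aliphatic glucosinolates were also mostly higher in set 3. In the iron list 15 of 20 were called higher and 1 lower, beside 5.98% higher and 7.13% lower of all tested genes. The median of the list was 1.32, beside 0.0012 over all tested genes. Set 3 against set 2 had 1 of the 20 called higher and 1 lower, and set 2 against set 1 had 10 called higher. NAS4, a nicotianamine synthase gene, was at 17.0, 50.6, 31.1 and 55.3 CPM in set 3, against 7.26, 16.0, 6.12 and 16.1 CPM in set 1 (log2 fold change 1.74 ± 0.17, SE; adjusted p 3.77e-05), and the iron signalling peptide gene IMA3 was at 46.4, 76.7, 64.2 and 104 CPM in set 3, against 18.1, 25.1, 15.73 and 32.7 CPM in set 1 (log2 fold change 1.67 ± 0.13, SE; adjusted p 3.9e-06). IMA3 overlaps genes of the opposite strand by 639 and 572 of its 2898 bases, and reads from such neighbours cannot be told apart. The bHLH genes BHLH38 and BHLH100, the reductase gene FRO2 and the transporter gene IRT1 of iron uptake changed by 1.95 ± 0.22, 1.85 ± 0.22, 1.51 ± 0.23 and 1.39 ± 0.19 (log2, SE). AT3G12900, an oxygenase gene of the list, was at 10.1, 6.30, 18.9 and 16.5 CPM in set 3, against 2.77, 1.70, 2.06 and 2.22 CPM in set 1 (log2 fold change 2.49 ± 0.48, SE; adjusted p 0.00302). The 1 gene called lower was FER4, for an iron-storing ferritin (-1.0 ± 0.11), while FER1 (-0.41 ± 0.19) and FER3 (-0.31 ± 0.12) were not called.

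In the glucosinolate list 16 of 17 were called higher (median 1.05), beside 5.98% of all tested genes. Set 3 against set 2 had 10 of the 17 called higher, and set 2 against set 1 had 1. CYP79F1, the cytochrome P450 gene that commits elongated methionine to the pathway, was at 34.3, 110.2, 47.2 and 123.4 CPM in set 3, against 8.72, 28.3, 11.6 and 44.0 CPM in set 1 (log2 fold change 1.85 ± 0.09, SE; adjusted p 9.67e-08), and it shares sequence with its neighbour CYP79F2 (0.92 ± 0.10). The flavin monooxygenase gene FMOGS-OX1 changed by 1.59 ± 0.10, the isomerase subunit gene IPMI2 by 1.05 ± 0.07, and the MYB regulator genes MYB28 and MYB29 by 0.65 ± 0.08 and 1.49 ± 0.16. The third regulator gene, MYB76 (1.31 ± 0.48), was the member not called. Genes of photosynthesis followed with smaller changes. Of 23 genes for light-harvesting proteins and the Rubisco small subunit, 11 were called higher (median 0.55), beside 5.98% of all tested genes, among them RBCS1B at 5494, 6850.2, 5720.4 and 5938 CPM in set 3, against 2596, 3090.5, 1462 and 3000.0 CPM in set 1 (log2 fold change 1.29 ± 0.15, SE; adjusted p 7.74e-05) and RBCS2B (1.002 ± 0.11). Set 3 against set 2 had none of the 23 called higher and 1 lower (median -0.038), while set 2 against set 1 had 13 called higher (median 0.60). These small-subunit genes are near-identical copies, so the share of reads given to each is uncertain. LHCB7, also called (0.64 ± 0.10), was at 0.57 and not called without the a1a2 mock library of set 1. In the phosphate starvation list 5 of 15 were called higher (median 0.54), including the lipid genes MGD3 (1.37 ± 0.23) and NPC4 (1.27 ± 0.21) and the noncoding IPS1 (1.51 ± 0.40), and set 3 against set 2 had 2 called higher and 1 lower, while set 2 against set 1 had 8 called higher.

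Transcripts of sugar starvation and darkness had the lowest median of the lists outside the clock. Of 13 genes, 12 were called lower in set 3 and none higher (median -1.64), beside 7.13% lower and 5.98% higher of all tested genes. All 13 were lower in all 4 pairs, while 42.6% of all tested genes had 1 direction in all 4 pairs. DRM1, a dormancy-associated gene repressed by sugar, was at 19.1, 7.48, 25.9 and 15.0 CPM in set 3, against 99.9, 51.4, 122 and 73.7 CPM in set 1 (log2 fold change -2.40 ± 0.11, SE; adjusted p 6.53e-08). DIN10, a raffinose synthase family gene induced in the dark, was at 217, 152, 272 and 211 CPM in set 3, against 851, 523, 1025 and 532 CPM in set 1 (log2 fold change -1.75 ± 0.11, SE; adjusted p 6.44e-07). ASN1, the asparagine synthetase gene induced in the dark, changed by -3.12 ± 0.27 (log2, SE), SEN1 by -2.51 ± 0.31 and BCAT2, for a branched-chain amino acid aminotransferase, by -3.80 ± 0.24. The gene not called was TPS9 (-0.50 ± 0.10). Set 2 had 6 of the 13 called lower than set 1, and set 3 had 8 called lower than set 2.

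Genes of low oxygen and of immunity were lower in part, and each of these lists also responds to the genotype or to flg22. In the hypoxia list 8 of 11 were called lower (median -0.66), beside 7.13% of all tested genes. The mean log2 CPM of the list was 4.72, 4.04, 1.97 and 1.56 in set 3, against 5.54, 5.25, 2.27 and 1.80 in set 1. The fall was thus larger in a1a2 than in Col-0. The set by genotype term had a median of -0.81 and was called for none of the 11. Of the 11, 4 were lower in all 4 pairs, while 42.6% of all tested genes had 1 direction in all 4 pairs. None of the 11 was free of overlap between the sets, beside 14.6% of all tested genes. Set 3 against set 2 had 1 of the 11 called lower, and set 2 against set 1 had 4. Within sets 3 and 1 a1a2 was above Col-0 at the same treatment in all 11. ADH1, the alcohol dehydrogenase gene, was at 30.3, 20.8, 2.82 and 3.78 CPM in set 3, against 94.1, 92.3, 7.92 and 6.71 CPM in set 1 (log2 fold change -1.61 ± 0.22, SE; adjusted p 0.000342), and LBD41, a transcriptional repressor gene, was at 78.3, 20.1, 15.3 and 2.80 CPM in set 3, against 172, 66.3, 42.8 and 3.15 CPM in set 1 (log2 fold change -1.28 ± 0.17, SE; adjusted p 0.000355). PCO1, whose product oxidises the N-terminal cysteine of the ERF-VII factors, was at -0.64 and lost its call without the a1a2 mock library of set 1 (-0.57). In the Col-0 libraries alone, LBD41 was at -1.01 and PCO1 at -0.44, and neither was called.

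Of 15 early genes of pattern-triggered immunity, 5 were called lower and 1 higher (median -0.46), beside 7.13% lower and 5.98% higher of all tested genes. Set 3 against set 2 had 2 called lower and 1 higher, and set 2 against set 1 had 1 called lower. The receptor kinase gene FRK1 was at 5.67, 0.656, 11.4 and 2.80 CPM in set 3, against 37.2, 9.95, 89.1 and 9.26 CPM in set 1 (log2 fold change -2.80 ± 0.40, SE; adjusted p 0.000529), and at 13.9, 0.263, 16.1 and 0.929 CPM in set 2. FLS2 was at 43.1, 9.97, 53.4 and 15.8 CPM in set 3, against 97.2, 34.5, 121 and 35.2 CPM in set 1 (log2 fold change -1.31 ± 0.13, SE; adjusted p 3.05e-05), and WRKY29 changed by -1.21 ± 0.25, or by -0.37 without a call in the mock-treated libraries alone. WRKY29 was also not called in the Col-0 libraries alone (-1.25) or in the test against the 1.5-fold threshold. In the a1a2 libraries alone FRK1 was at -3.2 and not called. The response of this list to flg22 was of like size in each set, with a median log2 difference between flg22 and mock of 3.49 in set 3, 3.39 in set 2 and 3.45 in set 1.

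**Figure D4:**
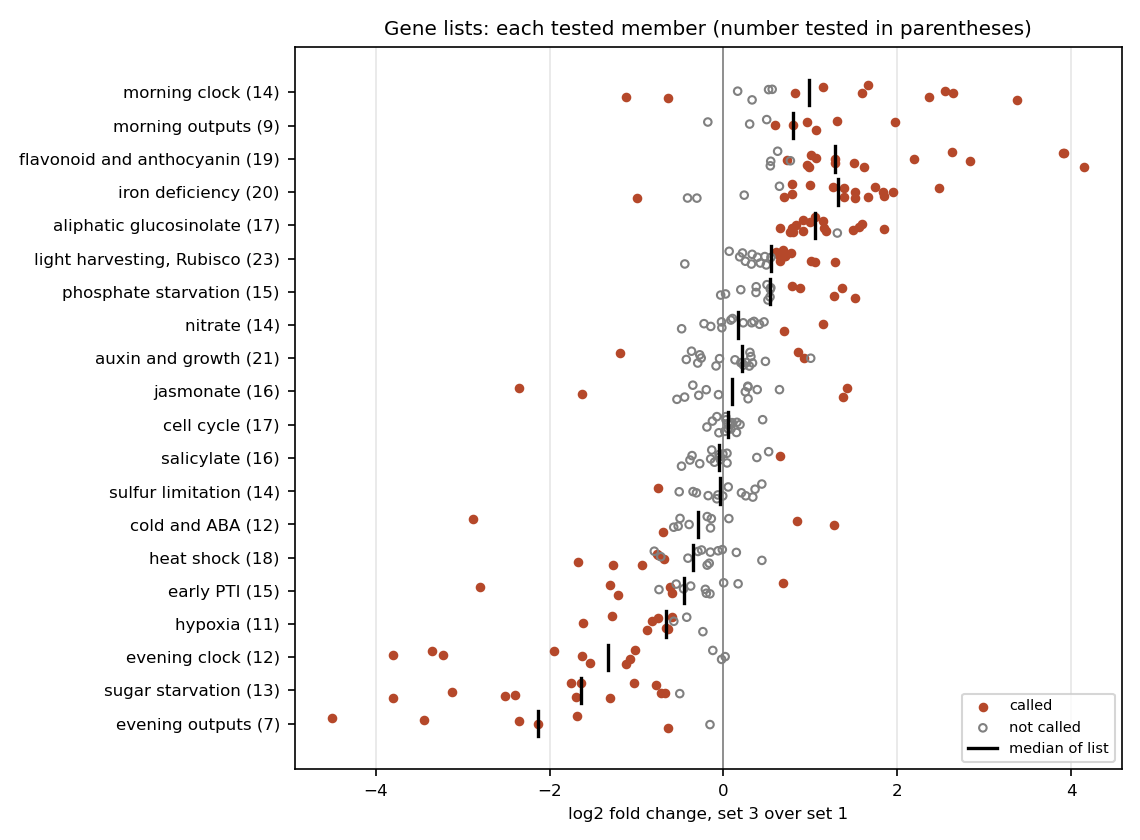
Fitted log2 fold change of set 3 over set 1 (x axis) for each tested gene of 20 lists (rows, number tested in parentheses), filled where called, with the median of the list as a bar. Medians run from 1.32 in the iron list and 1.28 in the flavonoid list to -2.14 among evening clock outputs, and the cell cycle list lies close to 0.

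The remaining lists are read against the 5.98% of all tested genes called higher and the 7.13% called lower. None of 17 cell cycle genes was called (median 0.05), with MCM5 of the replication helicase at 23.4, 24.9, 21.1 and 21.0 CPM in set 3, against 21.0, 27.5, 16.5 and 24.8 CPM in set 1. Of 16 salicylate genes 1 was called, WRKY70 (0.65 ± 0.14), a call lost without the Col-0 flg22 (0.56) or a1a2 flg22 (0.52) library of set 1. The sulfur limitation list had 1 of 14 called, the APS reductase gene APR3 (-0.76 ± 0.10), and the nitrate list had 2 of 14, the transporter gene NRT1.1 (0.69 ± 0.08) and the repressor gene HHO1 (1.14 ± 0.17). In the heat shock list 6 of 18 were called lower (median -0.35), among them the chaperone genes HSP90.1 (-0.94 ± 0.13) and HSP23.5 (-1.28 ± 0.22). The auxin and growth list had 2 of 21 called higher, the expansin genes EXPA1 (0.85 ± 0.14) and EXPA5 (0.92 ± 0.16), and 1 lower, IAA29 (-1.19 ± 0.31). The called shares of the nitrate and the auxin and growth lists were near the 13.1% of all tested genes.

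The cold and jasmonate lists each held genes that moved in opposite directions. Of 12 cold and abscisic acid genes 2 were called higher and 2 lower. COR15B, which encodes a chloroplast protein of freezing tolerance, was at 0.197, 0.175, 0.437 and 0.595 CPM in set 3, against 2.12, 2.41, 2.88 and 2.79 CPM in set 1 (log2 fold change -2.88 ± 0.27, SE; adjusted p 1.12e-05), and KIN1 was at 2.27, 1.62, 2.48 and 6.75 CPM in set 3, against 1.21, 1.14, 1.28 and 1.38 CPM in set 1 (log2 fold change 1.27 ± 0.29, SE; adjusted p 0.00649). The change of KIN1 was 0.78 without the Col-0 mock library of set 3, which held its highest value. Of 16 jasmonate genes, the vegetative storage protein genes VSP1 (1.42 ± 0.16) and VSP2 (1.37 ± 0.11) were called higher, while the allene oxide cyclase gene AOC2 (-1.62 ± 0.13) and the defensin gene PDF1.2 (-2.36 ± 0.35) were called lower. AOC2 was at 81.6, 98.1, 55.1 and 70.7 CPM in set 3, against 228, 229, 205 and 271 CPM in set 1, so the libraries of the sets were far apart, but the copies of this cyclase gene lie together and share much sequence.

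Several of the genes with the largest changes were on none of the clock lists. AT5G23240, for a DnaJ-domain protein of the chloroplast (DJC76), was at 0.740, 0.525, 0.972 and 1.06 CPM in set 3, against 14.0, 13.3, 24.7 and 33.8 CPM in set 1 (log2 fold change -4.71 ± 0.18, SE; adjusted p 2.32e-08), but 1721 of its 1993 bases overlap a pseudogene on the opposite strand. AT1G56300, for another DnaJ-domain protein, was at 6.51, 2.80, 10.4 and 3.99 CPM in set 3, against 80.7, 37.9, 109 and 50.2 CPM in set 1 (log2 fold change -3.58 ± 0.08, SE; adjusted p 3.21e-10), with an overlap of 775 bases with a neighbour. AT2G33830, a relative of the dormancy gene DRM1, was at 5.77, 2.89, 14.4 and 12.7 CPM in set 3, against 179.8, 103, 316 and 212 CPM in set 1 (log2 fold change -4.63 ± 0.20, SE; adjusted p 1.74e-07), and in all 3 genes each library of set 3 lay below each library of set 1. RbcX1, a Rubisco assembly chaperone gene, was at 0.493, 0.700, 2.48 and 3.23 CPM in set 3, against 23.0, 29.7, 27.6 and 39.3 CPM in set 1 (log2 fold change -4.22 ± 0.27, SE; adjusted p 2.29e-06).

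The threonine aldolase gene THA1 changed by -3.63 ± 0.29 (log2, SE) and the pectin methylesterase inhibitor family gene AT5G62360 by -3.49 ± 0.28. The defensin genes PDF1.3, PDF1.2b and PDF1.2c changed by -3.60 ± 0.38, -3.43 ± 0.44 and -3.49 ± 0.49, which may be in part the same reads, since the genes are near-identical. Among the rises, AT2G27420, a cysteine proteinase gene, was at 5.72, 24.3, 5.30 and 15.6 CPM in set 3, against 1.01, 4.26, 0.668 and 3.36 CPM in set 1 (log2 fold change 2.48 ± 0.14, SE; adjusted p 3.08e-07). BGLU47, a beta-glucosidase gene, was at 6.46, 13.03, 6.61 and 11.6 CPM in set 3, against 1.21, 1.82, 1.08 and 2.51 CPM in set 1 (log2 fold change 2.50 ± 0.16, SE; adjusted p 7.53e-07).

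It was then asked whether the difference between the sets depended on flg22. The term of set by treatment, (set 3 minus set 1 after flg22) minus (set 3 minus set 1 in mock), was called in 109 genes (0.533%), positive in 35 (0.171%) and negative in 74 (0.362%). The count was 67 (38 positive, 29 negative) with scaling to library size alone and 200 with DESeq2 (53 positive, 147 negative). Of the 74 genes with a negative term, flg22 raised the mean of sets 3 and 1 in 72, so their induction was smaller in set 3. Of the 35 with a positive term, flg22 raised the mean in 23 and lowered it in 12.

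The gene with the smallest p was ABCC3, for an ABC transporter, with 312.03, 62.0, 294 and 70.7 CPM in set 3, against 270.3, 217, 270.2 and 211 CPM in set 1 and 299, 59.1, 243 and 58.1 CPM in set 2. The mock libraries of set 1 stood apart, at over 200 CPM, while the flg22-treated libraries of all sets lay between 243 and 312.03 CPM (term 1.85 ± 0.15, SE; adjusted p 0.00165). XPL1, a methyltransferase gene of phosphocholine synthesis, was at 66.2, 68.4, 71.4 and 73.6 CPM in set 3, against 27.7, 92.7, 25.2 and 89.5 CPM in set 1, and at 22.6, 40.4, 18.0 and 46.7 CPM in set 2 (1.74 ± 0.16; adjusted p 0.00259). It was lower after flg22 than in mock in sets 2 and 1 and at nearly the same level in set 3. The calcium-binding protein gene AT2G46600 had a term of 1.29 ± 0.13, AT1G65690 of the late embryogenesis abundant family -1.44 ± 0.16, and AKN2, an APS kinase gene of sulfate assimilation, -1.31 ± 0.15. AKN2 was at 125, 74.2, 134 and 88.6 CPM in set 3, against 181, 42.8, 196 and 53.1 CPM in set 1. COL2 was the 1 clock gene called, with a term of -1.01 ± 0.16 (adjusted p 0.0278), and its levels were 15.8, 68.5, 17.2 and 64.7 CPM in set 3, against 6.10, 14.0, 6.37 and 11.1 CPM in set 1.

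**Figure D5:**
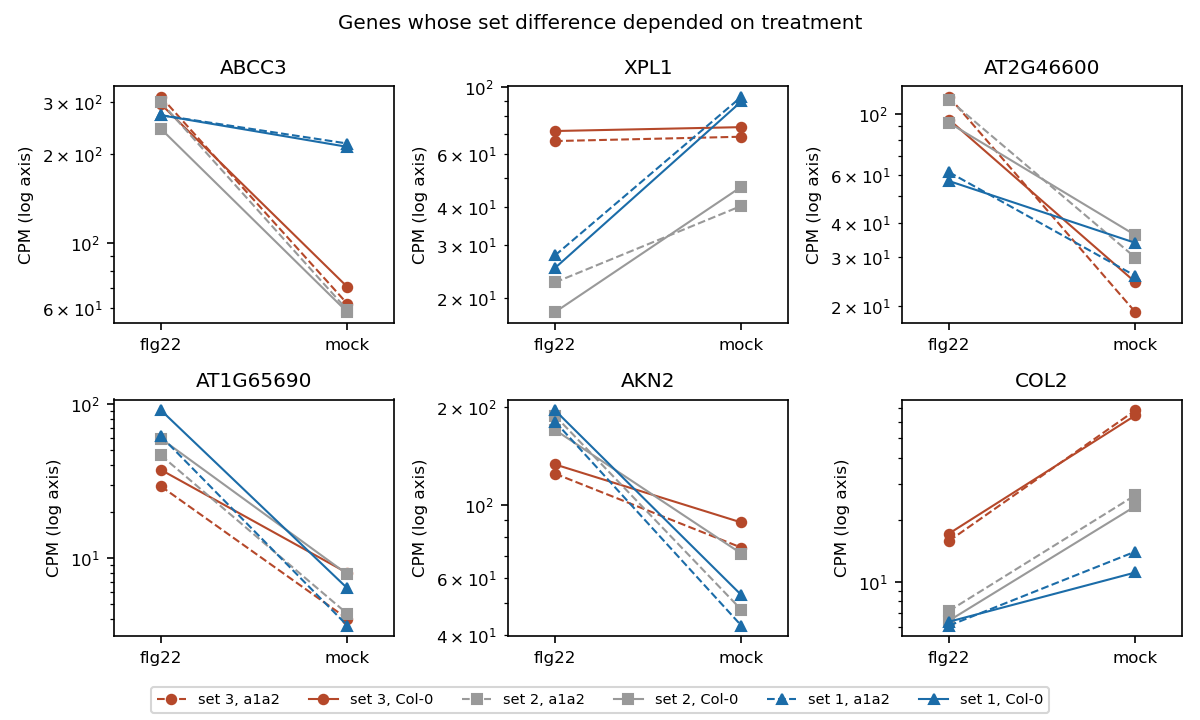
CPM (log axis) after flg22 and in mock for 6 genes called for set by treatment, each line joining the 2 libraries of 1 genotype and set. ABCC3 is at 211 and 217 CPM in the mock libraries of set 1 and at 58.1 to 70.7 CPM in the other mock libraries, and the line of XPL1 is nearly level in set 3.

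The difference between the sets depended on the genotype in 1 gene by the edgeR test (0.00489%), where 969 genes had an unadjusted p under 0.05, and DESeq2 called 20. That gene, AT5G37990, a methyltransferase gene, was at 21.2, 21.1, 31.2 and 35.6 CPM in set 3, against 1.16, 1.93, 14.0 and 12.6 CPM in set 1, and at 6.93, 8.19, 26.8 and 29.1 CPM in set 2 (term of set 3 minus set 1 in a1a2 minus the same in Col-0, 2.43 ± 0.24, SE; adjusted p 0.0431). Its level in a1a2 was lowest in set 1, below that in Col-0 by more than in set 3.

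The Gene Ontology terms that the authors deposited beside the counts gave a wider description, and the terms named here were chosen after their values were seen. Of 105 genes tested under circadian rhythm, 18 (17.1%) were called higher and 20 (19.0%) lower, against 5.98% and 7.13% of all genes. Under response to red light 18 of 54 were called higher, and under response to absence of light 11 of 34 lower. Reciprocal meiotic recombination had 11 of 31 called lower and none higher, and response to hydrogen peroxide had 16 of 60 lower. In tertiles of transcript length, short to long, the median log2 fold change was 0.037, 0.0033 and -0.027. In tertiles of GC content, low to high, it was 0.0017, -0.013 and 0.015. By length, 7.37%, 6.59% and 3.98% were called higher and 7.57%, 7.27% and 6.56% lower. By GC content, these shares were 7.21%, 4.61% and 6.12%, and 8.76%, 6.77% and 5.87%. In tertiles of mean CPM, low to high, they were 8.63%, 5.14% and 4.17%, and 8.76%, 5.62% and 7.02%.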

How the data were processed

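The authors deposited expected counts (estimated counts that can be fractional) per gene and library, not scaled to library size. According to the sources, reads were filtered with SOAPnuke and aligned with HISAT to TAIR10, and the authors tested with DESeq2. The counting tool and its use of strand are not given in the sources used here. Fractional values made up 7.50% of entries, in 2661 of 23739 genes, and counts were rounded. Names, positions and 250-base upstream windows came from RefSeq for TAIR10.1, where all 23739 Entrez identifiers were found.

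In edgeR 4.0.16 (R 4.3.3), filterByExpr kept 20439 genes and dropped 3300 with low counts. TMM factors were 0.921 to 1.10 in set 3 and 0.922 to 1.16 in set 1. All 12 libraries entered 1 robust quasi-likelihood fit, with genotype-by-treatment group and replicate set as terms. Interaction terms were added in separate fits. Log2 CPM used a prior count of 2. The fits were checked on simulated counts.

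The replicate numbers pair the libraries: deviations from the group means correlated between all libraries of a set (r across genes, which are not independent replicates, 0.545 to 0.660 within set 3, 0.218 to 0.447 within set 2 and 0.373 to 0.607 within set 1). The libraries were grouped by their labels, and no column of another sample was used.

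Genes were named by a rule that took every tested clock gene, the 12 largest called rises and 12 largest called falls above a mean level of 5 CPM and in 1 direction in all 4 pairs, up to 3 called genes of each other list by smallest adjusted p (or the most abundant member where none was called), ATE1 and ATE2, and up to 5 genes of each interaction by smallest p. Other list members with values were named after their values were seen. Members and lists were chosen with earlier results of these data known, and the lists were written from general knowledge. The alternatives were RLE size factors, library-size scaling, no filter, DESeq2 1.42.0, the 8 libraries of sets 3 and 1 alone, no group block, other call rules, subsets by treatment or genotype, and leaving out each library of set 3 or set 1. Total counts were 20285662 to 22433536 per library, and genes under 1 CPM rest on few counts.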

Additional observations from a re-analysis of the deposited data

Results flagged for a closer look

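The set difference depended on the treatment in 6 genes named here, by the interaction test in edgeR over all genes. The term, set 3 minus set 1 after flg22 minus the same in mock, was 1.85 for ABCC3, 1.74 for XPL1, 1.29 for AT2G46600, -1.44 for AT1G65690, -1.31 for AKN2 and -1.01 for COL2 on the log2 scale, with adjusted p-values of 0.00165, 0.00259, 0.00424, 0.00897, 0.0116 and 0.0278. For AT5G37990 the set difference depended on the genotype, by 2.43 (a1a2 minus Col-0, log2; adjusted p 0.0431). Each of these terms rests on 2 pairs of libraries on either side.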

How the results depend on the processing

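Set 3 against set 1 called 2680 genes, and RLE factors, library-size scaling, no filter, DESeq2, the 8 libraries alone, and the mock, flg22 or a1a2 subsets gave 2045 to 2720. It called 984 with no group block (genotype-by-treatment term left out), 6221 with no fold threshold, 843 in the test against 1.5-fold and 1588 in Col-0 alone. Without 1 library it called 2380 to 2665. Clock genes called were 22 to 35 over those settings and 29 to 34 without 1 library. Without a fold threshold and in the test against 1.5-fold, set 2 against set 1 called 1619 and 40 genes and set 3 against set 2 called 3822 and 316. Set by treatment called 67 genes with library-size scaling and 200 with DESeq2. Set by genotype called 2 with library-size scaling, 2 with no filter, 20 with DESeq2 and 0 with the 8 libraries alone (620 at an unadjusted p under 0.05). Using the replicate set as a block, or replicate block, moved a1a2 against Col-0 to 196 calls in mock (34 without it) and 169 after flg22 (28 without it), and flg22 against mock to 5026 in Col-0 and 5075 in a1a2 (4287 and 4326 without it). No called gene of the 112 named changed sign under any alternative. Genes not called did so. ZTL was at -0.032 with library-size scaling and -0.15 in a1a2 alone. CHE was at 0.13 after flg22 alone and 0.10 in Col-0 alone. CDF5 was at -0.041 in a1a2 alone, and PIF4 at 0.082 and FT at 0.10 in Col-0 alone. MCM5 was at -0.021 with library-size scaling, -0.18 in mock alone and -0.0092 in a1a2 alone. After flg22 alone, ATE2 was at 0.045 and ABCC3 at 0.16. In mock alone, XPL1 was at -0.35, AT2G46600 at -0.45 and AT1G65690 at 0.26. AKN2 was at -0.17 with no group block and -0.55 after flg22 alone. Without 1 library, ZTL ran from -0.082 to 0.074, CHE from -0.12 to 0.056, FT from -0.30 to 0.013, MCM5 from -0.072 to 0.12 and AKN2 from -0.10 to 0.33. The cause of these changes was not tested. Library-size scaling moved the median of all genes by -0.05 on the log2 scale.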
